A study of Mus musculus with 4 samples.

Results

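The transcription factor Foxp3 and 8 surface or cytoskeletal genes of the regulatory T cell (Treg cell) signature were examined for binding of the related zinc finger factors Eos and Helios. The genes were Foxp3, Tnfrsf18, Tnfrsf1b, Tnfrsf4, Tnfrsf9, Izumo1r, Nt5e, Capg and Lrrc32, which are 9 of 21887 protein-coding genes in the gene table. A peak belonged to a gene if its summit, the base of strongest signal, lay inside the gene or had that gene's annotated start or end as the nearest of any protein-coding gene within 100 kb. This gave 8 of 1106 anti-Eos peaks and 3 of 469 anti-Helios peaks. For Foxp3 every peak within 100 kb was considered.

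The peaks come from chromatin immunoprecipitation with sequencing (ChIP-seq), in which an antibody recovers the DNA that a protein contacts in fixed chromatin. Wild-type (WT) mouse spleen Treg cells, enriched with a kit for CD4+CD25+ cells, gave 1 library with a monoclonal anti-Eos antibody made for the study (18H2) and 1 with the anti-Helios antibody D8W4X. The labels do not name the mice's strain, age or sex, or say whether cells of several animals were pooled. The matching libraries from Eos-flox x Foxp3-Cre mice, in which Eos is removed from cells that express Foxp3, were not analysed here, so no peak is checked against cells without Eos. Peak lists hold no expression values, so the identity of the cells was not checked by their transcripts.

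Foxp3 is the lineage factor of Treg cells, and mice and humans without it develop severe autoimmunity. Treg cells carry high levels of several tumour necrosis factor (TNF) receptor family members, of enzymes and receptors that set the local supply of adenosine and of active transforming growth factor beta (TGF-beta), and of the interleukin-2 receptor. Eos, encoded by Ikzf4, and Helios, encoded by Ikzf2, belong to the Ikaros family, whose members bind DNA through zinc fingers that recognise a GGGAA core.

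Promoter sequence is shown where it bears on a peak or on its absence. The sequences are those of RefSeq for GRCm38.p6, which lists 10 windows for 8 of the 9 genes. Each window runs from 250 bases before to 50 bases after a transcript start. Capitals mark the motif GGGAA or its reverse complement TTCCC, searched on both strands. Tnfrsf18 is shown from the first base of the anti-Eos peak at its start to the end of the motif (chr4:156026177-156026347, plus strand), because this was the only window of these genes that held a summit. For Izumo1r, 30 bases inside the anti-Eos peak that overlaps its window are given (chr9:14903718-14903747, minus strand). Foxp3 is shown over the 250 bases before its first start (chrX:7579426-7579675, plus strand), where neither list had a peak. For Capg the 30 bases with the closest pair of motifs are given (chr6:72549573-72549602, plus strand), also without a peak.

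Tnfrsf18: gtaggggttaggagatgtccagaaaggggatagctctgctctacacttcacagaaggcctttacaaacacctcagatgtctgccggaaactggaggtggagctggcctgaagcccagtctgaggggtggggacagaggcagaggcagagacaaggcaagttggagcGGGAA
Izumo1r: atcaggaggagcaacaggagggccctgcct
Foxp3: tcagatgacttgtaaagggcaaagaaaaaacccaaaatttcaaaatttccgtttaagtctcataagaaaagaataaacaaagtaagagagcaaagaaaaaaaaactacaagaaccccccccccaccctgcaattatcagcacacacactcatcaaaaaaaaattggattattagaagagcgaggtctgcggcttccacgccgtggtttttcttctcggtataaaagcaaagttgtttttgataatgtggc
Capg: agggtccGGGAAcaggtGGGAAcggtgtcc

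GGGAA was found in 8 of the 10 windows. It was present in 62.7% of all 32851 windows of this length in the table (20599) and in 79.0% of the 314 windows that held an anti-Eos summit (248). The Tnfrsf18 window held 1 copy, 21 bases after the start and inside the anti-Eos peak. The Izumo1r window, which the anti-Eos peak overlapped by 44 bases, held 0 copies. Copies were most numerous at Capg and Tnfrsf1b, with 4 in each window, and neither window met a peak. The Tnfrsf4 window had 3 copies, the windows of Tnfrsf9 had 2 and 1, and that of Nt5e had 1, again without a peak. Of the windows of Foxp3, the first held 1 reverse copy just after the start and the second held 0. A match describes letters in the window and is not evidence of a bound site.

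Anti-Eos peaks were found at 5 of the 9 genes, namely Tnfrsf18, Tnfrsf1b, Izumo1r, Nt5e and Capg. Anti-Helios peaks were found at 3 of these, Tnfrsf18, Izumo1r and Capg. Among all protein-coding genes, 4.38% had an assigned anti-Eos summit, 2.12% an anti-Helios summit and 1.54% summits of both. Foxp3, Tnfrsf4, Tnfrsf9 and Lrrc32 had 0 assigned summits in either list. The median length of the 9 genes was 18.1 kb, against 17.2 kb for all protein-coding genes and 28.7 kb for those with an anti-Eos summit. With 1 library per antibody there was no replicate error and no test between conditions, and the genes were chosen with earlier results of these data known, so the counts describe these libraries only. The anti-Helios count fell to 1 when only peaks with a -log10 q of at least 5 were kept, and also to 1 when ends of every annotated gene, noncoding ones included, competed for a summit.

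**Figure D1:**
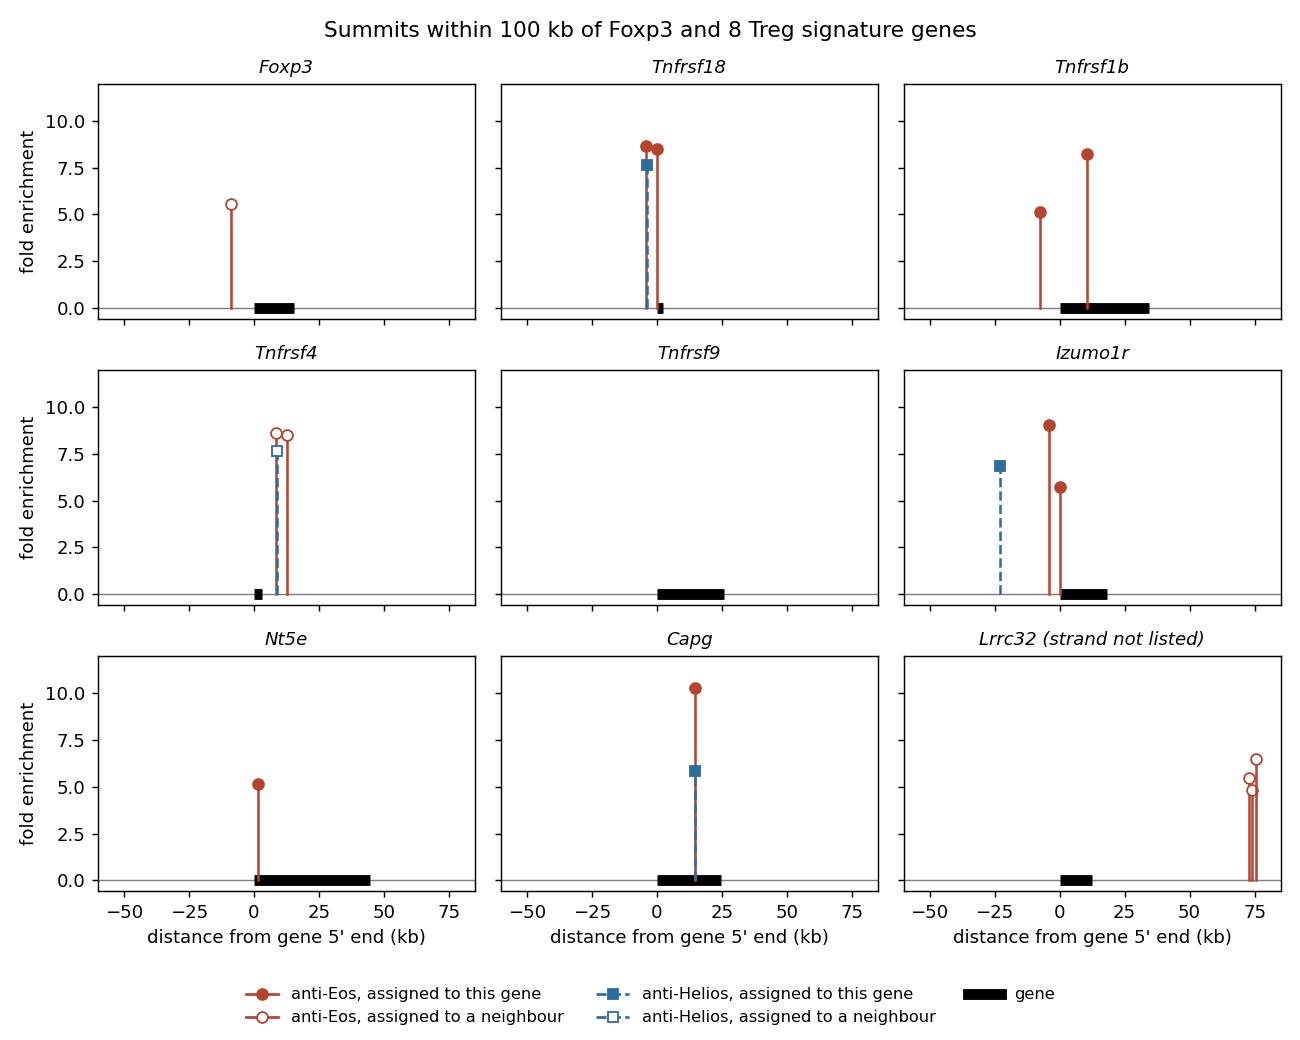
Summits within 100 kb of each of the 9 genes, by distance from the gene's 5' end in kb (for Lrrc32, whose strand is not listed, from the end with the lower coordinate) and by the authors' fold enrichment. Filled symbols were assigned to the gene named, open symbols to a neighbouring gene, and the black bar is the gene; Tnfrsf9 has no symbol, and the open symbols at Foxp3, Tnfrsf4 and Lrrc32 belong to Ppp1r3f, Tnfrsf18 and Emsy.

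At Foxp3 (chromosome X, 7579676 to 7595243, plus strand) no peak of either list lay inside the gene. A single peak lay within 100 kb, with anti-Eos (7570905 to 7571037). Its fold enrichment was 5.55 with a -log10 q of 3.45, rank 927 of 1106 by fold. The summit fell inside Ppp1r3f, which encodes a glycogen-targeting subunit of protein phosphatase 1, 3.33 kb downstream of the start of that gene. It lay 8.73 kb upstream of the first Foxp3 start and 9.53 kb from the second. Between the summit and Foxp3 begins Flicr, a long noncoding RNA gene that overlaps the 5' end of Foxp3 and is known as a modulator of its expression, and the Flicr start was 2.65 kb from the summit. The peak rested on 8 fragments over a local background of 0.621 fragments (exact 95% Poisson interval 3.45 to 15.8 fragments), and it did not overlap an anti-Helios peak. It was not among the peaks with a -log10 q of at least 5, of which 0 lay within 100 kb of Foxp3.

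The anti-Helios list had 0 peaks within 100 kb of Foxp3, and its nearest on that chromosome was at Ints6l, 48861 kb away (fold 8.56). The X chromosome held few peaks altogether, 18 of 1106 with anti-Eos (1.63%) and 3 of 469 with anti-Helios (0.640%), while it holds 4.41% of the protein-coding genes. The labels do not state the sex of the mice, and the number of X copies per cell was not tested for its part in these shares. The weakest peaks listed anywhere rested on 7 anti-Eos and 9 anti-Helios fragments, so signal below about these numbers at Foxp3 was not detectable in these lists. The number needed there could be higher, because it depends on the local background, which is not known inside Foxp3.

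Tnfrsf18 and Tnfrsf4 encode the costimulatory receptors GITR and OX40 and lie next to each other on chromosome 4, both on the plus strand. Tnfrsf4 (156013595 to 156016613) ends 9.71 kb before Tnfrsf18 (156026322 to 156028894) begins. Tnfrsf18 had 2 anti-Eos peaks and 1 anti-Helios peak, all upstream of the gene. The anti-Eos peak at the start of the gene (156026177 to 156026359) had its summit 45 bp upstream of the start, with a fold of 8.51, a -log10 q of 9.28 and 14 fragments (interval 7.65 to 23.5). It is the peak whose sequence is given above, and it had no anti-Helios partner. The other anti-Eos peak (156022169 to 156022507) had its summit 4038 bp upstream, with a fold of 8.65, a -log10 q of 11.0 and 18 fragments (10.7 to 28.4). The anti-Helios peak (156022187 to 156022489) lay entirely within it, with a fold of 7.66, a -log10 q of 7.45 and 16 fragments (9.15 to 26.0). The summits of this pair were 155 bp apart.

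The shared place lay between the receptor genes and inside Gm16008, an annotated long noncoding RNA gene. The anti-Eos summit at the Tnfrsf18 start also lay inside Gm16008. The small nuclear RNA gene Gm25982 was nearer to the shared place than either receptor gene. It lay 774 bp from the anti-Eos summit there and 619 bp from the anti-Helios summit. Tnfrsf4 took no summit under the nearest-end rule, although the shared peak was 5.67 kb (anti-Eos) and 5.83 kb (anti-Helios) past its end. Assignment to Tnfrsf18 therefore rested on a difference of under 2 kb in distance. The anti-Eos folds here were above those of 69.1% (upstream peak) and 67.5% (peak at the start) of the anti-Eos list.

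Tnfrsf1b encodes TNFR2, the TNF receptor through which TNF acts on Treg cells (chromosome 4, 145212368 to 145246870, minus strand). It had 2 anti-Eos peaks and 0 anti-Helios peaks. The stronger (145236200 to 145236378) had its summit inside the gene, 10.6 kb downstream of the start, with a fold of 8.23, a -log10 q of 9.20 and 15 fragments (8.40 to 24.7). The weaker (145254476 to 145254654) had its summit 7.66 kb upstream, inside the long noncoding RNA gene Gm36233, with a fold of 5.15, a -log10 q of 3.01 and 9 fragments (4.12 to 17.1). The 4 copies of GGGAA in the start window lay in neither peak. The nearest anti-Helios summit was 4411 kb away, at Pik3cd.

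Tnfrsf9 encodes the activation-induced receptor 4-1BB (chromosome 4, 150920155 to 150946104, plus strand). No summit lay within 100 kb of it. The nearest lay 350.2 kb away with either antibody and were assigned to Rere, where the anti-Eos fold was 3.56 and the anti-Helios fold 5.87. Of the 4 TNF receptor genes, Tnfrsf18 thus had summits of both antibodies, Tnfrsf1b of anti-Eos alone, and Tnfrsf4 and Tnfrsf9 of neither.

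Izumo1r encodes folate receptor 4, a surface marker of Treg and anergic CD4 T cells (chromosome 9, 14885814 to 14903951, minus strand). It had 2 anti-Eos peaks and 1 anti-Helios peak at 3 separate places. The anti-Eos peak at the start (14903644 to 14903761) had its summit 77 bp downstream of the listed start, with a fold of 5.75, a -log10 q of 3.76 and 8 fragments (3.45 to 15.8). The second anti-Eos peak (14907966 to 14908253) had its summit 4366 bp upstream, with a fold of 9.07, a -log10 q of 9.90 and 13 fragments (6.92 to 22.2). The anti-Helios peak (14926763 to 14926892) was farther upstream, with its summit 23.0 kb from the listed start and 22.9 kb from the gene's upstream boundary. The pseudogene Gm18789 was nearer to that summit, at 10790 bp. The fold of the anti-Helios peak was 6.83, its -log10 q 4.70, and it rested on 12 fragments (6.20 to 21.0). None of the 3 overlapped a peak of the other list.

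Nt5e encodes CD73, the surface enzyme that turns AMP into adenosine (chromosome 9, 88327609 to 88372089, plus strand). It had 1 anti-Eos peak (88329221 to 88329439), with the summit inside the gene 1699 bp downstream of the start. The fold was 5.15, the -log10 q 3.01 and the fragment count 9 (4.12 to 17.1), the same values as for the weaker Tnfrsf1b peak. Only 8.05% of anti-Eos peaks had a lower fold. The nearest anti-Helios summit was 3357 kb away.

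Capg encodes a capping protein of actin filaments of the gelsolin family (chromosome 6, 72538282 to 72562983, plus strand). It carried the strongest anti-Eos peak of the 9 genes (72552709 to 72552982), with a fold of 10.3, a -log10 q of 12.7 and 16 fragments (9.15 to 26.0). An anti-Helios peak (72552858 to 72553038) overlapped it by 125 bp, with a fold of 5.87, a -log10 q of 3.41 and 12 fragments (6.20 to 21.0). The summits were 66 bp apart, 3287 and 3353 bp downstream of the listed start and inside the gene. The anti-Eos fold exceeded 83.2% of its list and the anti-Helios fold 17.9% of its own. The listed Capg start lies within the gene's annotated span, so longer transcripts begin further upstream.

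Lrrc32 encodes GARP, which holds latent TGF-beta on the Treg cell surface (chromosome 7, 98489305 to 98501831). No summit was assigned to it. A cluster of 3 anti-Eos peaks lay 60.5, 61.4 and 63.1 kb beyond the end with the higher coordinate, with folds of 5.46, 4.85 and 6.49 and 11, 13 and 11 fragments. These were nearer to Emsy, which encodes a transcriptional repressor that binds BRCA2, at 24.8, 23.9 and 22.2 kb from its end. No anti-Helios peak overlapped them. Around the 100 kb limit, the farthest assigned summit was the anti-Helios summit 22.9 kb from Izumo1r, and for Lrrc32 the nearest anti-Helios summit, at 154.9 kb, fell outside it.

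**Figure D2:**
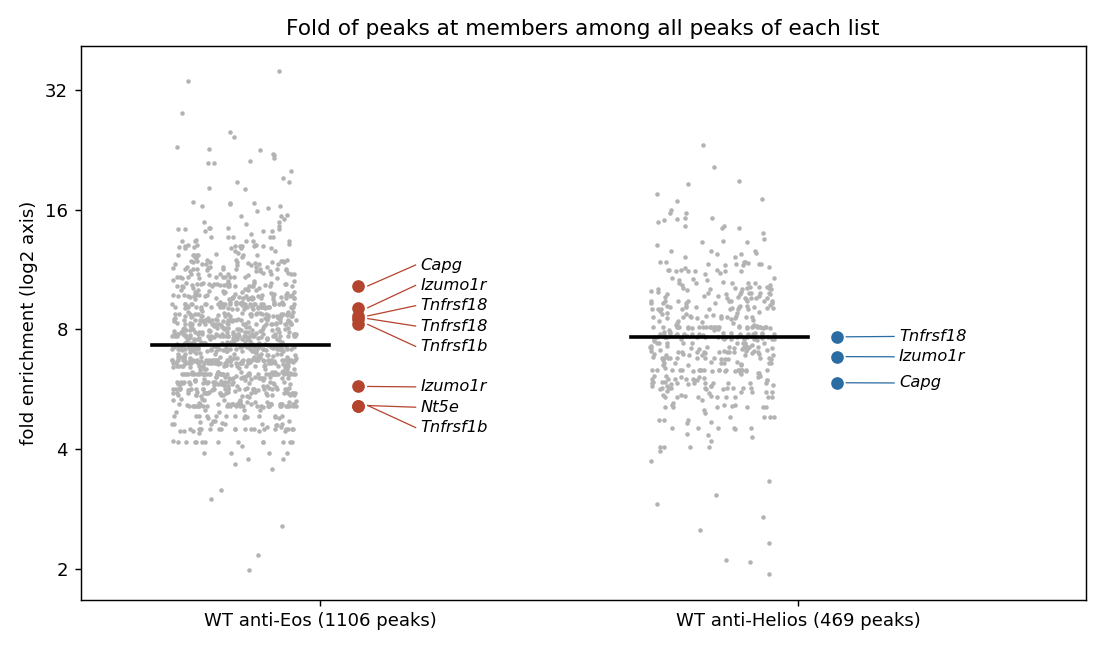
Fold enrichment (log2 axis) of every peak in each list (grey points, black line at the median) and of the peaks at the 9 genes (coloured, named). Folds were computed by the authors separately for each list; 5 of 8 anti-Eos and 1 of 3 anti-Helios peaks lie above the median of their own list.

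The 11 peaks were of ordinary strength. The anti-Eos folds at these genes ran from 5.15 to 10.3 with a median of 8.37, where the whole list had a median of 7.31 and a range of 1.99 to 35.7. The anti-Helios folds ran from 5.87 to 7.66, where the whole list had a median of 7.66 and a range of 1.93 to 23.3. Fragments numbered 8 to 18 at the anti-Eos and 12 to 16 at the anti-Helios summits, against medians of 14 and 18 over the lists. Local backgrounds were between 0.544 and 1.20, in fragments for anti-Eos and in fragments scaled by 0.895 for anti-Helios. All intervals for these 11 peaks overlapped each other, so the order of the peaks by fragments was not resolved by the depth.

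**Figure D3:**
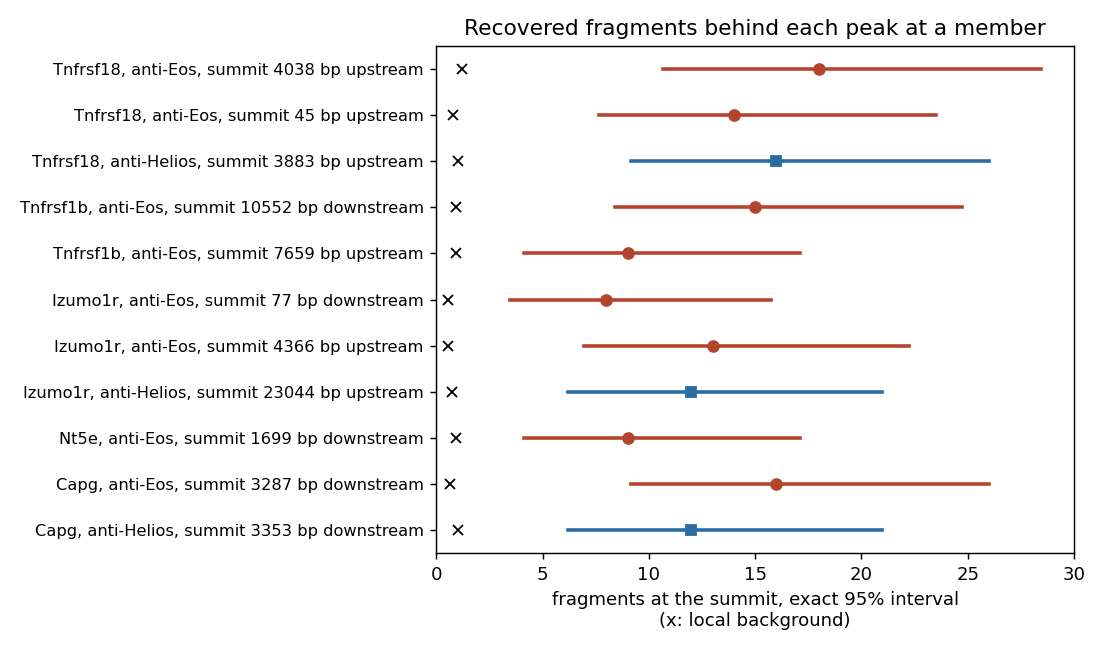
Fragments recovered at the summit of each of the 11 peaks (points) with exact 95% Poisson intervals for counting error (lines), and the local background (crosses); circles are anti-Eos, squares anti-Helios. Positions are bp from the nearest listed start of the gene. Anti-Helios backgrounds are in fragments scaled by 0.895, while the fragment counts are unscaled. The intervals overlap each other, from 8 fragments at the Izumo1r start to 18 upstream of Tnfrsf18; each peak is in the list because it was called above background.

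By position, 4 of the 8 anti-Eos summits lay inside the gene and 4 upstream of it. Within 1 kb of a listed start were 2 of the 8, at Tnfrsf18 and Izumo1r, and 36.0% of all anti-Eos summits lay that close to a listed start of some protein-coding gene. None of the 3 anti-Helios summits did, against 48.9% of that list. Overlap with a peak of the other list was found for 2 of 8 anti-Eos peaks and 2 of 3 anti-Helios peaks, where the shares over the lists were 27.9% and 65.9%. The shared places were the one upstream of Tnfrsf18 and the one within Capg. With summits required to lie within 100 bp only Capg counted as shared, and with a -log10 q of at least 5 only Tnfrsf18. At neither of the gene starts with an anti-Eos peak was there an anti-Helios peak.

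Several of these genes had more than 1 anti-Eos peak. Tnfrsf18, Tnfrsf1b and Izumo1r had 2 each, which is 3 of the 5 genes with a peak, while 14.8% of all genes with an anti-Eos summit had 2 or more. At Tnfrsf18 and Izumo1r the arrangement was alike, with 1 peak at the start and 1 about 4 kb upstream, 3993 and 4443 bp apart. Another anti-Eos summit within 5 kb was found for 4 of the 8 peaks and for 15.6% of the list. Peaks of 1 gene share their surroundings and are not independent of each other.

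The lists of related genes were described by the same rule, without a test. For comparison, 4.38% of all protein-coding genes had an assigned anti-Eos summit and 2.12% an anti-Helios summit. Among 32 other Treg signature genes, 5 had anti-Eos summits: Il2rb and Il2ra, which encode chains of the interleukin-2 receptor (folds of up to 10.3 and 7.27), Ikzf4 (9.09), the costimulatory receptor gene Icos (5.54) and Ikzf2 (4.50). Anti-Helios summits were assigned to 2 of the 32, Il2rb (12.1) and Cd83 (6.31, from 61.6 kb away), and to 1 of them within 10 kb or at a -log10 q of at least 5. Of 21 other TNF receptor family genes, Cd27 (13.0), Tnfrsf19 (7.78) and Tnfrsf14 (6.17) had anti-Eos summits, all outside the gene at 4.68, 9.86 and 8.12 kb from an end, and 0 had anti-Helios summits. Of 10 genes for TNF family ligands and TRAF adaptor proteins, which carry the signal of these receptors, 3 had anti-Eos summits: Tnf (11.5), Traf3 (6.88) and the neighbouring cytokine gene Lta (5.15 and 4.70). Only Lta had an anti-Helios summit (7.21), at a place shared with anti-Eos.

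Known regulators of Foxp3 transcription had anti-Eos summits at 7 of 27 genes, where the share over all protein-coding genes was 4.38% (2.12% for anti-Helios). The highest folds were at Smad3, a mediator of TGF-beta signals (10.8), Creb1 (9.54 at a shared place), Ets1 (9.10), Gata3 (7.20) and Tet3 (6.05). Tet3 encodes an enzyme that oxidises methylated cytosine. The Smad3 and Tet3 summits lay inside their genes, 51.5 and 45.4 kb from the nearest end. A summit anywhere inside a gene counted, and the counts for these lists take no account of gene length. The Ets1 summit of fold 9.10 lay outside the gene, 44.2 kb from its end. The anti-Eos peak inside Ets1 had a fold of 4.70 and a -log10 q of 4.46, and it overlapped an anti-Helios peak. Anti-Helios summits were at 2 of the 27, Ets1 (5.87) and Creb1 (5.40), of which 1 had a -log10 q of at least 5. In the latent TGF-beta pathway 3 of 8 genes had anti-Eos summits, Tgfb1 itself (9.26), the receptor gene Tgfbr2 (8.75, 32 bp from a gene end) and Nrros (7.56), and 0 had anti-Helios summits. In the adenosine pathway 1 of 7 genes, the phosphodiesterase gene Pde4d, had summits of both antibodies. They lay at different places (5.71 and 6.32), both with a -log10 q below 5. Both were inside this long gene, 133.4 kb (anti-Eos) and 52.9 kb (anti-Helios) from its nearest end. The median length of all protein-coding genes was 17.2 kb. No summit of either list was assigned to the 6 other gelsolin family genes or to 3 genes related to Izumo1r in name or family. For so few genes, 0 is near the shares over all genes.

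The 8 B cell, 8 myeloid and 7 CD8 and NK cell markers had 0 summits in either list. Over all protein-coding genes the shares with a summit were 4.38% (anti-Eos) and 2.12% (anti-Helios). In lists this short, 0 is near those shares and does not show whether such cells were present. Of 8 genes typical of naive conventional T cells, which a CD25-based enrichment may leave in part, 4 had anti-Eos and 2 anti-Helios summits: Lef1 (up to 13.0 and 7.79), S1pr1 (up to 6.17 and 7.41), Tcf7 and Klf2 (4.44 and 4.16, anti-Eos). The anti-Eos count of 4 was 2 within 10 kb and 1 at a -log10 q of at least 5. These genes are also used by resting Treg cells, and the part of other T cells in the peaks was not tested.

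**Figure D4:**
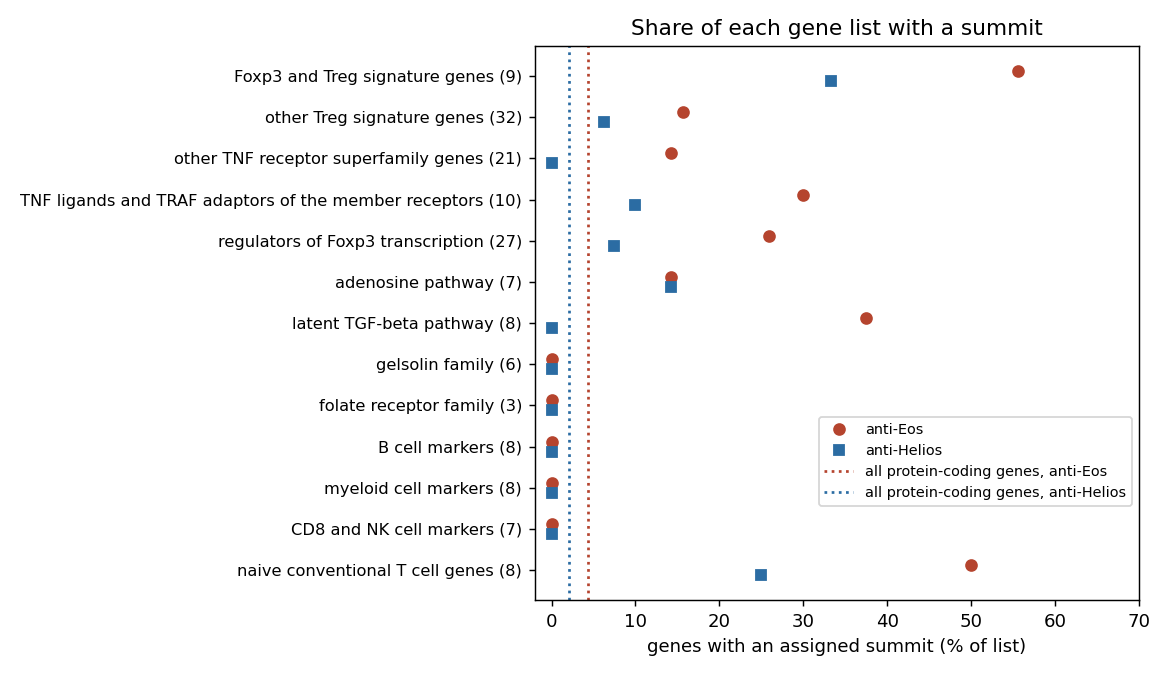
Percent of genes in each list with an assigned summit of anti-Eos (circles) and anti-Helios (squares), with the number of genes in brackets and dotted lines at the shares of all protein-coding genes (4.38% and 2.12%). The 9 genes stand at 5 and 3 genes, and the naive conventional T cell list at 4 and 2 of 8 genes. The gelsolin, folate receptor, B cell, myeloid, and CD8 and NK cell lists stand at 0.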

How the data were processed

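The authors deposited 1 peak list per library. Per the labels, the 2 wild-type libraries were prepared from formaldehyde-fixed splenic cells. The tools named, per the submitters' processing notes, are BWA 0.7.1 and cutadapt 4.4, then SAMtools 1.17, Picard, and deepTools 3.5.1, with builds mm10 and GRCm38.p6. Which program called the peaks, with which settings and against which control, is not given in the sources. Each deposited line holds the authors' fold (a ratio over background), -log10 p-value, -log10 q-value, a score and another number, the summit's offset. That score is 10 times the -log10 q, rounded down, in every line of both lists.

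Total read numbers are not known here. For each peak, the fragments at the summit (a whole number) and the local background were solved from each fold and p-value with a formula of the kind MACS uses, to within a relative tolerance of 0.0001, for 100% of the peaks of each list. The anti-Helios pileup was scaled by 0.895. Anti-Helios local backgrounds are in these scaled units, while the fragment counts given are unscaled. That this formula was used is inferred from the values. Intervals are exact 95% Poisson intervals and cover counting error only; reads carried no stated molecular identifiers.

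Genes came from RefSeq for GRCm38.p6 (49997 genes, 21887 of them protein-coding on the chromosomes used), a table without exons, so a summit inside a gene was not classed further. Strand and starts came from the RefSeq promoter table, which lists 27025 genes and none on 1 autosome, so distances to starts cover 1093 and 460 summits. Overlap meant at least 1 bp. The genes and lists were chosen with earlier results of these data known. All 9 genes are named with every peak; in other lists all genes with a summit are named, or the 5 with the highest fold where there were more. Python 3.11.15 with numpy, pandas 2.3.3 and scipy 1.17.1 was used. Fragment recovery was tested on values simulated with the same formula and a given scale, which does not check the formula or the fitted 0.895. Assignment was tested on summits planted inside genes, and overlap on planted intervals. The nearest-end step was not tested. The knockout libraries were not analysed here.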

Additional observations from a re-analysis of the deposited data

How the results depend on the processing

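The number of genes with an anti-Eos summit stayed at 5 of 9 with assignment within 10 kb or 500 kb, to the nearest end of any annotated gene, by the peak's midpoint or by overlap of the peak with the gene itself. It was 4, without Nt5e, at a -log10 q of at least 5. The anti-Helios count of 3 was less stable. It was 2, without Izumo1r, within 10 kb, and it was 1 in each of 4 other settings: the nearest end of any annotated gene, where Capg remained; a -log10 q of at least 5, where Tnfrsf18 remained; overlap with the gene itself; and overlap with the gene or 1 kb around it. Peaks shared between the antibodies fell from 2 to 1 with anti-Eos and from 2 to 1 with anti-Helios when summits had to lie within 100 bp, when the overlap had to cover 50% of both peaks, and at a -log10 q of at least 5. The only peak within 100 kb of Foxp3 was lost at that q, leaving 0. Of the 113 genes in the pathway lists, 22 had anti-Eos and 6 anti-Helios summits, where 4.38% and 2.12% of all protein-coding genes did. At a -log10 q of at least 5 the counts in the pathway lists were 16 and 3. Over the single lists with any summit, 17 recomputed counts stayed within 1.5 times the count given and 7 did not, under settings (10 kb and the stricter q) that can only remove summits. No paired analysis was possible because each antibody and genotype had 1 library. Few fragments per peak limit every fold given.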
